A study of Rattus norvegicus with 20 samples.

Results

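In the embryonic rat testis, 4 genes of hormone signalling and calcium sensing were followed: Insl3, the insulin-like hormone of the Leydig cell, Lhcgr, the receptor for luteinizing hormone and chorionic gonadotropin, Fshr, the receptor for follicle-stimulating hormone, and Vsnl1, a neuronal calcium sensor. They were chosen by name, with earlier results of these data known, and every probe set that the platform annotation assigns to these symbols was taken. Of the 4 genes, 3 had probe sets: 1 for Insl3, 2 for Lhcgr and 2 for Vsnl1, together 5 of 31042. Fshr was not listed in that annotation and was not analysed here. All 5 probe sets passed the filter on low signals, which kept 22526 probe sets.

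RNA from Sprague-Dawley rat testes was hybridised to 20 Affymetrix arrays, 2 for each of 10 groups. In utero, dams were injected daily from embryonic day 8 to day 14 with DMSO or with 100 mg/kg/day of vinclozolin, a fungicide whose metabolites block the androgen receptor, and testes were taken at E13, E14 and E16 (12 arrays). The E13 embryos were taken before the injections would have ended. In culture, E13 gonads attached to the mesonephros were kept for 3 days with 50 µM vinclozolin in DMSO or DMSO alone (4 arrays), or with 0.5 µM flutamide, a pharmaceutical antiandrogen, in ethanol or ethanol alone (4 arrays). The opposite gonad of each pair received the vehicle, and the mesonephros was removed before RNA collection. Sex was read by PCR for Sry. Both arrays of a group are labelled as biological replicates, but how many animals each holds is not said. The p-values rest on the spread between arrays and not on that between animals. For each probe set that spread is 1 estimate over all 10 groups, drawn towards a trend over all probe sets.

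Fetal Leydig cells lie between the testis cords and make androgens and Insl3, which acts through the receptor Rxfp2 on the gubernaculum and moves the testis towards the scrotum. Lhcgr sits on Leydig cells and Fshr on Sertoli cells, the cells of the cords, and both are G protein-coupled receptors that raise cAMP when a gonadotropin binds. Vsnl1 encodes visinin-like protein, which binds calcium and moves to membranes. It is best known from brain and is also found in the adrenal gland.

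Insl3 lies on chromosome 16 (18432668 to 18434539 in the GRCr8 assembly). Its annotated interval overlaps that of B3gnt3 (18434114 to 18444851), for which the platform annotation lists no probe set. Lhcgr (11415361 to 11480834), Fshr (10952329 to 11160288) and Vsnl1 (39757721 to 39878556) lie on chromosome 6. In the RefSeq promoter table of that assembly, the 250 bases before the start of each gene were searched on both strands for AGGTCA, the core motif of nuclear receptors that is held by sites of Nr5a1 (SF-1) and Nr4a1 (Nur77). The windows around it are shown because it was the one of the 5 motifs searched that was found, once in Insl3 and once in Lhcgr. The capitals mark the core motif, read on the strand of the gene.
Insl3, chr16:18433069-18433098, GRCr8, plus strand: agcccctgaccgTGACCTgagcctcgacct
Lhcgr, chr6:11415270-11415299, GRCr8, plus strand: ggccacaattccAGGTCAaggaaagcaggg
In Insl3 the core motif runs on the opposite strand, 108 to 103 bases before the start that the promoter table uses (18433189), and in Lhcgr on the gene's strand, 133 to 128 bases before the table's start (11415415). Of 33469 promoters of the same length, 14.1% hold AGGTCA. The longer AAGGTCA (3.99% of promoters), TGACG, the core of the cAMP response element (18.2%), AGATAA, a form of the GATA site (10.3%), and AGAACA, a core motif of androgen receptor sites (17.5%), were in none of the 4 windows. Both of these starts lie inside the annotated gene intervals. The Insl3 window lies inside the interval as well, and whether it is exonic or intronic in another transcript was not analysed here, while the Lhcgr window lies before the interval. These are matches of letters and not measured binding. AAGGTCA contains AGGTCA, so the motifs overlap.

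Values are MAS5 signals on a linear scale. Differences are on the scale of log2(signal + 16), which understates changes of dim probe sets. A level is called dim where it lay under the 40th percentile of its array (26.5 to 42.1) on both arrays of a group, and no difference is given where both groups were dim. Tests are those of limma over all 22526 probe sets, with adjusted p-values (Benjamini-Hochberg) called under 0.05. Over the 12 comparisons the standard error had a median of 0.22, and the number of arrays limits the precision.

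Trimmed mean signals were 210.1 for all in utero arrays, 218.1 for the vinclozolin experiment and 107.03 for the flutamide experiment, and the correlation between the arrays of a group ran from 0.969 to 0.982. Beta-actin signals at the 3' over the 5' probe set, which rise as RNA degrades, stood at ratios of 1.73 to 3.47 in utero, of 2.67 to 3.90 for vinclozolin cultures and of 9.08 to 11.1 for flutamide cultures. Some arrays stood apart. Xist, the RNA that coats the inactive X chromosome and marks female cells, was high on several arrays labelled testis. It was read at the 1 of its 4 probe sets with the highest mean among those tested. On both E13 arrays numbered 1 it read 758.6 with vehicle and 896 with vinclozolin, against 20.4 and 17.9 on the arrays numbered 2, and Amh, the Sertoli cell hormone, was low there (106 and 372.4, against 1484.7 and 1102.2). At E14 Xist read 32 to 489.9, at E16 2.4 to 16.6, in the vinclozolin experiment 5.1 to 112.8 and in the flutamide experiment 168.2 to 211.9. Its fall from E14 to E16, averaged over treatments, was called in limma's fit (-2.90, SE 0.96, adjusted p = 0.0226), and with vehicle alone it was not (-3.29, SE 1.36, adjusted p = 0.0916). The Y-linked Eif2s3y read 2363.1 to 3182.4 at E13, 902.6 to 1248.9 at E14 and 2364.2 to 3495.7 at E16. So Xist and Eif2s3y both differed between E14 and E16, the interval of the rises below, and their part in those rises was not tested. Without both E13 arrays numbered 1, the rises from E13 to E16 with vehicle were 5.36 for Insl3 (adjusted p = 2.86e-05), 2.43 for Lhcgr at its brighter probe set (adjusted p = 0.00364) and 2.33 for Vsnl1 (adjusted p = 0.000247). E14 vehicle replicate 1 had summed signals of 8 immediate early genes of 7063, against 1703 on replicate 2. The Leydig markers Cyp17a1, Cyp11a1 and Star ranked at percentile 83.2 or higher on every E16 and culture array. At E13 and E14, Cyp17a1 reached at most percentile 37.4 and Cyp11a1 at most 48.9, while Star ranked from 46.4 to 60.03.

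**Figure D1:**
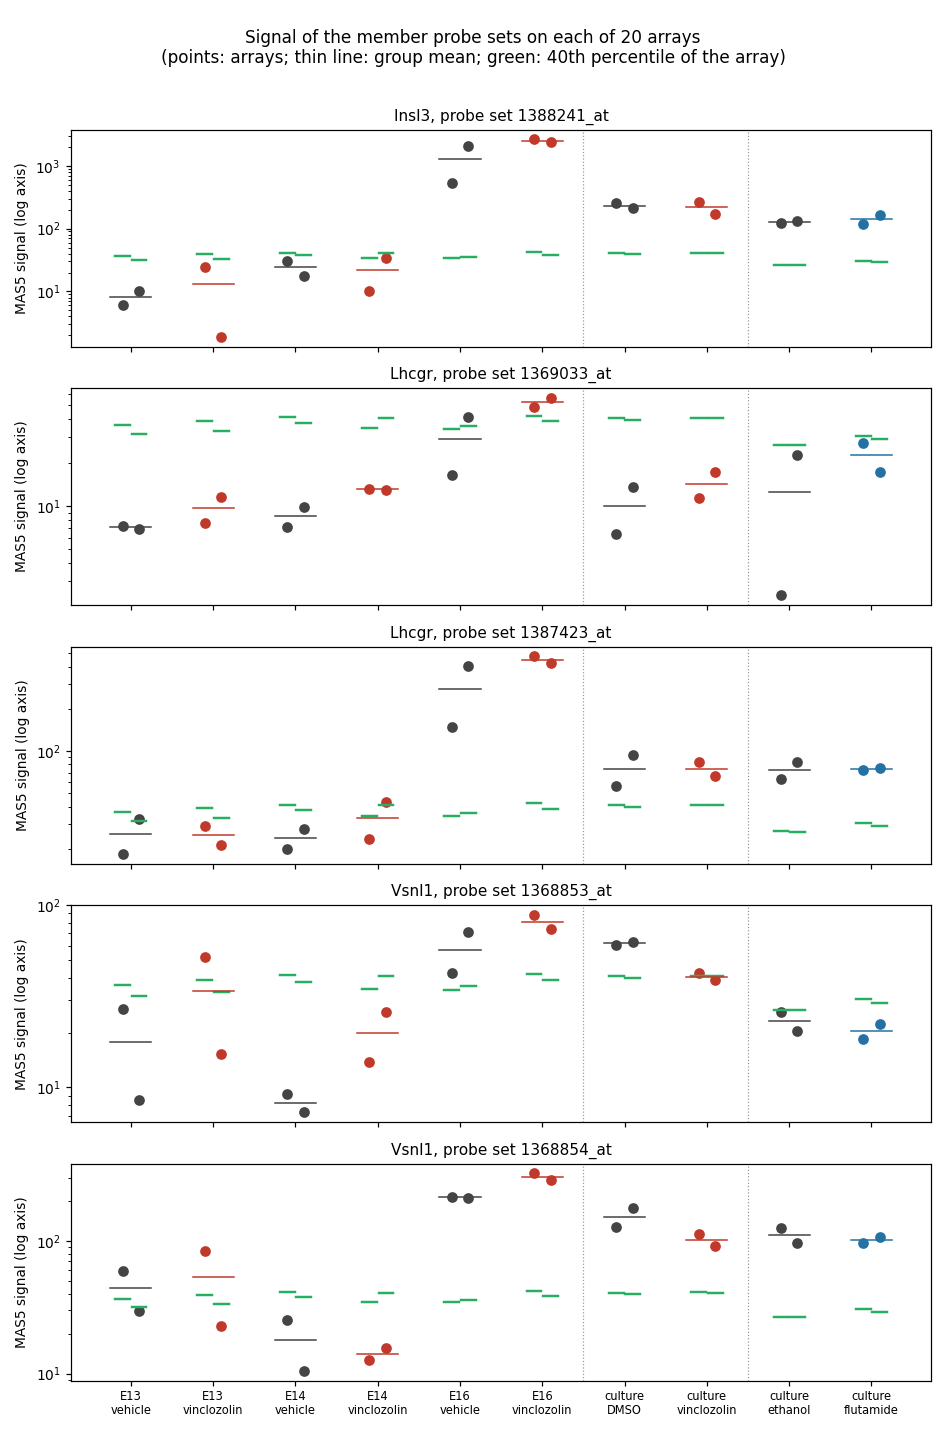
MAS5 signal on a log axis (vertical) of the 5 probe sets in the 10 groups (horizontal); each point is 1 array, the thin line the mean of 2 arrays and the green bar the 40th percentile of that array. Insl3 lies under the green bars at E13 and E14 and between 535.5 and 2638.5 at E16, with E16 vehicle replicate 1 lowest of the 4 E16 arrays.

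Insl3 appeared between E14 and E16. Its probe set (1388241_at) read 6.1 and 10.1 at E13 with vehicle, 24.7 and 1.9 at E13 with vinclozolin, 31.0 and 17.3 at E14 with vehicle, and 10.2 and 33.7 at E14 with vinclozolin. At E16 the vehicle arrays read 535.5 and 2066.1 and the vinclozolin arrays 2638.5 and 2371.3. All 8 earlier arrays were under the 40th percentile of their array, and all 4 E16 arrays lay between percentiles 87.2 and 98.1, with no overlap. In vehicle testes the rise from E14 to E16 was 4.76 (SE 0.47, n = 2 and 2, adjusted p = 2.07e-05) and that from E13 to E16 was 5.48 (SE 0.47, adjusted p = 2.78e-06), in limma's test. Counted from the 40th percentile in place of the dim readings, these rises were 4.27 and 4.42. Without each of their arrays in turn they ran from 3.801 to 5.72 and from 4.52 to 6.44, lowest without E16 vehicle replicate 2 and highest without E16 vehicle replicate 1, and were called each time. From E13 to E14 both groups were dim and the test found no call (adjusted p = 0.406). In each of the 2 rises Insl3 ranked the fifth largest of the 22526 probe sets tested. In bulk tissue, more cells that express a gene and more RNA per cell cannot be told apart.

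Averaged over vehicle and vinclozolin, with 4 arrays a stage, the Insl3 rise from E14 to E16 was 5.44 (SE 0.34, adjusted p = 2.77e-08), the second largest of all probe sets. The order of the 6 in utero groups by mean signal was E16 vinclozolin (2504.9), E16 vehicle (1300.8), E14 vehicle (24.15), E14 vinclozolin (21.95), E13 vinclozolin (13.3) and E13 vehicle (8.1). The 4 lower groups were all dim and have no order among them, and the difference between the E16 groups was not called. The one clear step in the order is thus that between E14 and E16.

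Lhcgr rose over the same interval, from a low level that passed the 40th percentile on some of the earlier arrays. Its brighter probe set (1387423_at) read 18.4 and 32.7 at E13 with vehicle, 29.0 and 21.2 with vinclozolin, and at E14 19.9 and 27.7 for vehicle, then 23.5 and 43.2 with vinclozolin. At E16 the vehicle arrays read 147.5 and 403.6 and the vinclozolin arrays 472.1 and 421.6. The earlier arrays ranked between percentiles 25.9 and 41.1 and the E16 arrays between 66.6 and 85.8. The vehicle difference was 2.73 from E14 to E16 (SE 0.35, adjusted p = 0.000155, and 2.24 counted from the 40th percentile) and 2.68 from E13 to E16 (SE 0.35, adjusted p = 0.000145, and 2.37). Without each array in turn these ran from 2.05 to 3.41 and from 1.998 to 3.36 and were called each time. By mean signal the order was E16 vinclozolin (446.85), E16 vehicle (275.55), E14 vinclozolin (33.35), E13 vehicle (25.55), E13 vinclozolin (25.1) and E14 vehicle (23.8), of which the last 4 overlapped. From E13 to E14 the vehicle difference was -0.05 (SE 0.35, 95% interval -0.79 to 0.69, adjusted p = 0.955).

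The other Lhcgr probe set (1369033_at) was dim at E13 and E14, with 6.9 to 11.6 and 7.1 to 13.2 over the 4 arrays of each stage. At E16 the vehicle arrays read 16.4 and 41.5 and the vinclozolin arrays 48.8 and 56.2, so that vehicle replicate 1 stayed under the 40th percentile and 3 arrays rose above it. Its vehicle differences did not pass (0.82 from E14, SE 0.35, adjusted p = 0.104, and 0.90 from E13, SE 0.35, adjusted p = 0.13). Averaged over both treatments they did (1.03, SE 0.25, adjusted p = 0.00349, and 1.16, SE 0.25, adjusted p = 0.00343). The call from E14 was lost when dim readings were raised to the 40th percentile (adjusted p = 0.0974). The annotation does not say which transcripts of Lhcgr each probe set reads.

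Vsnl1 also rose by E16, from E13 readings that spread widely. Its brighter probe set (1368854_at) read 59.2 and 29.4 at E13 with vehicle and 83.7 and 22.9 with vinclozolin. At E14 it read 25.5 and 10.5 for vehicle, then 12.7 and 15.6 with vinclozolin, all 4 under the 40th percentile. At E16 the vehicle arrays read 214.6 and 210.8 and the vinclozolin arrays 322.1 and 286.3. The 2 lower E13 readings were those of replicates numbered 2, which had the low Xist, and the lower one, 22.9, lay within the E14 range. The E16 arrays stood above all earlier ones, and by mean signal the order was E16 vinclozolin (304.2), E16 vehicle (212.7), E13 vinclozolin (53.3), E13 vehicle (44.3) and the dim E14 groups, with the E13 groups overlapping.

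The rise of Vsnl1 from E14 to E16 in vehicle testes was 2.79 (SE 0.35, adjusted p = 0.000126, and 2.04 counted from the 40th percentile) and that from E13 was 1.97 (SE 0.35, adjusted p = 0.002, and 1.93). The fall from E13 to E14 was -0.82 with vehicle (SE 0.35, adjusted p = 0.193) and -0.93 averaged over both treatments (SE 0.25, adjusted p = 0.0118). Counted from the 40th percentile these were -0.11 and -0.25 and the call was lost (adjusted p = 0.385). It also rested on the E13 arrays numbered 1. Without both of them the difference was -0.41 (adjusted p = 0.166), and it was lost as well without E13 vinclozolin replicate 1 alone (adjusted p = 0.0541) or without E14 vehicle replicate 2 (adjusted p = 0.0536). Those E13 arrays also had more signal of 6 mesonephros genes (1913 and 1690, against 1455 and 1211) and less of 13 Sertoli genes (9660 and 10600, against 14381 and 14260) and of 4 red cell genes (773 and 963, against 5554 and 2913). The part of these in the Vsnl1 values was not tested.

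The second Vsnl1 probe set (1368853_at) read lower. It stood at 27, 8.5, 51.9 and 15.3 at E13, 9.2, 7.3, 13.8 and 25.8 at E14, and 42.3, 70.8, 88.3 and 73.8 at E16, each time with vehicle first. It rose from E14 to E16 with vehicle (1.55, SE 0.34, adjusted p = 0.00536), but the call was lost when counted from the 40th percentile (0.36, adjusted p = 0.14) and without E16 vehicle replicate 2 (1.27, adjusted p = 0.0573). From E13 to E14 both vehicle groups were dim, and the difference averaged over treatments was not called (-0.40, SE 0.24, adjusted p = 0.239) and stood at 0.021 counted from the 40th percentile and at 0.079 without the E13 arrays numbered 1. From E13 to E16 with vehicle it did not pass (1.13, SE 0.34, adjusted p = 0.0509). It did without E13 vehicle replicate 1 (1.54, adjusted p = 0.0393). Over the 12 arrays, the pair of Vsnl1 probe sets correlated at r = 0.91 and the pair of Lhcgr probe sets at r = 0.95, as a description of arrays that share 3 stages.

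In all, 4 of the 5 probe sets, which cover 3 genes, rose from E14 to E16 with vehicle, and 3 with dim readings raised to the 40th percentile. Of all 22526 probe sets, 22% were called there in either direction, 2112 of them upwards. From E13 to E16, 3 of 5 rose against 8.55%, and from E13 to E14, 0 of 5 were called against 2.93% (at an unadjusted p under 0.05, 1 of 5, Vsnl1 1368854_at). Averaged over both treatments, 5 of 5 rose from E14 to E16 (41.5% of all called) and from E13 to E16 (18.7%), and 1 of 5 fell from E13 to E14 (25.1%). The shares of the averaged comparisons are large for all probe sets, so a call there sets a probe set little apart. The median of all probe sets was -0.10 from E14 to E16 and -0.04 from E13 to E16 with vehicle. The genes were chosen with earlier results of these data known, so these counts describe them and are not a test.

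**Figure D2:**
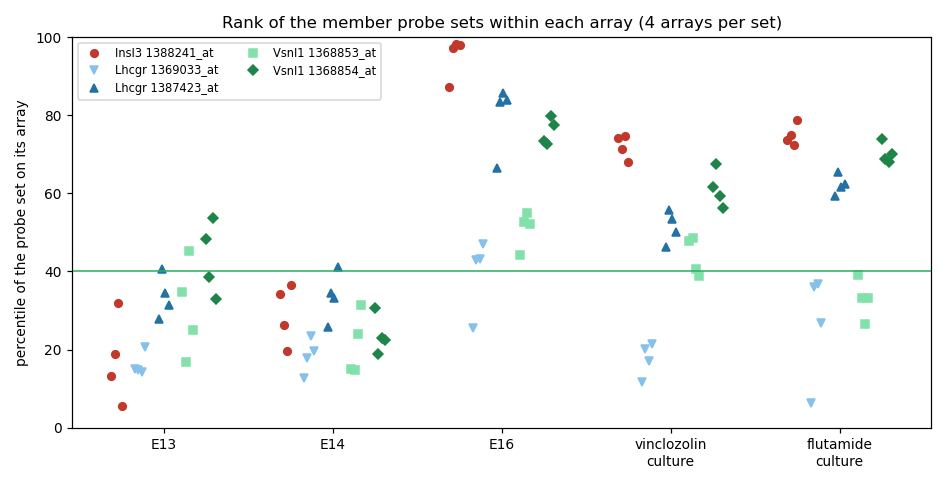
Percentile of each of the 5 probe sets among all probe sets of its array (vertical), for the 4 arrays of each stage and of each culture experiment (horizontal), where each point is 1 array and the line marks the 40th percentile. Insl3 ranks from 5.49 to 36.5 at E13 and E14, from 87.2 to 98.1 at E16 and from 68.2 to 78.8 in culture.

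The E16 vehicle arrays lay far apart for 2 of the 3 genes. Replicate 1 minus replicate 2 was -1.92 for Insl3, and 0.071% of the tested probe sets lay further down. For Lhcgr it was -1.36 at the brighter probe set (0.515% further down) and -0.83 at the other (4.08%). Vsnl1 differed by 0.024 at its brighter probe set and by -0.57 at the other (10.1%). The vinclozolin arrays of E16 differed little, with SDs from 0.11 to 0.15 on the log2 scale over the 5 probe sets, against 1.36 for Insl3 and 0.96 for the brighter Lhcgr probe set with vehicle.

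Other genes differed between the same E16 vehicle arrays. Cyp17a1, the hydroxylase of androgen synthesis, read 2657 on replicate 1 and 6521.8 on replicate 2, and 7448 and 6601.3 with vinclozolin. Star, which carries cholesterol into mitochondria, read 395.5 and 646.2, and 884.8 and 797.6 with vinclozolin. Fdx1, the ferredoxin that feeds Cyp11a1, read 3562.7 and 3550, and of 16 Leydig genes 11 were lower on replicate 1 (median -0.18), where 53% of all probe sets were. So the shortfall was deep in Insl3, Lhcgr and Cyp17a1 and not shared by every gene of the list. All 4 red cell genes were higher on replicate 1 (median 1.11), with Hba-a3, a globin, at 8842 against 3641.3 and Alas2, the first enzyme of red cell heme synthesis, at 3876.5 against 1051.8. Their summed signal was 26564 and 15410 for vehicle, against 18564 and 17727 for vinclozolin. Amh read 1942 and 2516.9. The part of the red cell signal in the low Insl3 and Lhcgr values was not tested.

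**Figure D3:**
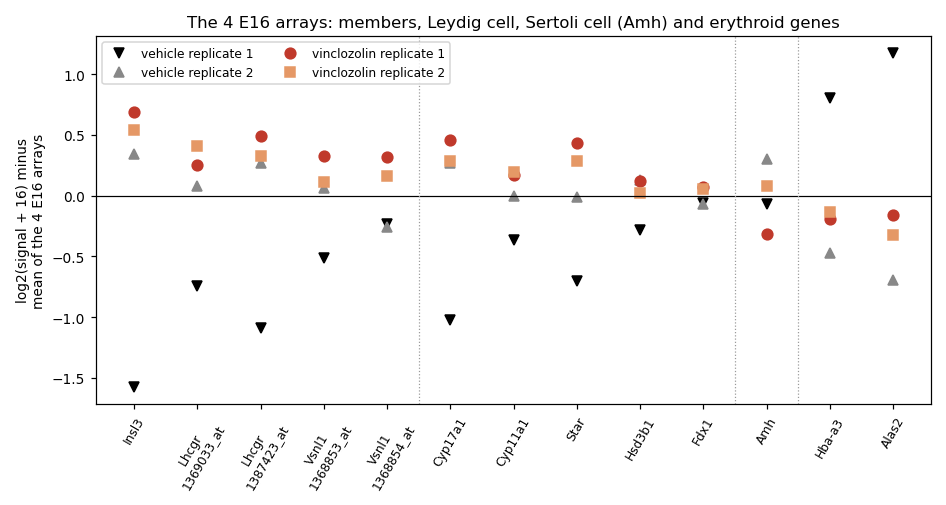
Difference of each of the 4 E16 arrays from their mean, in log2(signal + 16) (vertical), for the 5 probe sets, 5 Leydig genes, Amh and 2 red cell genes (horizontal). Vehicle replicate 1 is lowest for Insl3 (-1.57), both Lhcgr probe sets, Vsnl1 1368853_at (-0.51), Cyp17a1, Cyp11a1 (-0.36), Star and Hsd3b1 (-0.28). It is highest for Hba-a3 and Alas2.

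The antiandrogens were compared with their vehicles at each stage and in each culture. At E16, 2 days after the last injection day, all 5 probe sets read higher on both vinclozolin arrays than on both vehicle arrays, as did 24.3% of all probe sets. Insl3 differed by 1.23 (SE 0.47, 95% interval 0.23 to 2.23, unadjusted p = 0.0189) and the brighter Lhcgr probe set by 0.82 (SE 0.35, 95% interval 0.08 to 1.56, unadjusted p = 0.0317) in limma's fit. After adjustment neither was called (adjusted p = 0.634 and 0.69). On the E16 vehicle arrays the log2 SDs were 1.36 and 0.96, the largest of the 10 groups for these probe sets. The intervals use 1 spread over all groups, so they do not measure the spread of the E16 arrays alone. The other Lhcgr probe set stood at 0.66 (SE 0.35, 95% interval -0.08 to 1.41, adjusted p = 0.778), and the Vsnl1 probe sets at 0.48 (SE 0.35, adjusted p = 0.838) and 0.44 (SE 0.34, adjusted p = 0.851). By limma 0 of 22526 probe sets were called at E16 (0%), and at an unadjusted p under 0.05 there were 1506 (6.69%), among them 2 of the 5.

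The size of the E16 difference hung on 1 array. Without vehicle replicate 1 it was 0.27 for Insl3 and 0.14 for the brighter Lhcgr probe set, and without vehicle replicate 2 it was 2.19 (adjusted p = 0.0581) and 1.499 (adjusted p = 0.0798). Vehicle replicate 2 and the vinclozolin arrays lay close together. For Vsnl1 at its brighter probe set, the value ran from 0.40 to 0.56 over the fits without 1 array, so it depended least on which array was left out.

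At E13 and E14 the differences were small against their intervals. Insl3 was dim in all 4 groups (adjusted p = 1 at E13 and 0.981 at E14). The brighter Lhcgr probe set differed by -0.0006 at E13 (95% interval -0.74 to 0.74, adjusted p = 1) and by 0.29 at E14 (95% interval -0.45 to 1.03, adjusted p = 0.944), and the other was dim in all 4 groups (adjusted p = 1 and 0.96). Vsnl1 at E13 differed by 0.09 (95% interval -0.65 to 0.83) and 0.51 (95% interval -0.22 to 1.23), with adjusted p = 1 for both probe sets. At E14 it was dim with either treatment (adjusted p = 0.977 and 0.893). Of all probe sets 0 were called at E13 (402 at an unadjusted p under 0.05) and 1 at E14 (0.00444%), and of the 5 none was under 0.05 unadjusted.

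Averaged over the 3 stages, limma called 0 of the 22526 probe sets (923 at an unadjusted p under 0.05). Insl3 stood at 0.42 (SE 0.27), Lhcgr at 0.37 (SE 0.20) and 0.35 (SE 0.20), and Vsnl1 at 0.15 (SE 0.20) and 0.50 (SE 0.20), each with an adjusted p of 0.998. The last, probe set 1368853_at, had an unadjusted p of 0.0229. It was dim in both groups at E14, its E13 difference turned to -0.052 without E13 vinclozolin replicate 1, and its average was 0.20 with dim readings raised to the 40th percentile. Insl3 and Lhcgr 1369033_at were dim in both groups at E13 and at E14. With dim readings raised likewise, their averages were 0.41 and 0.12. An F test of whether the vinclozolin effect differed between stages called 0 of 22526 probe sets (1004 at an unadjusted p under 0.05), and for the 5 its adjusted p ran from 0.983 to 1. A difference at E16 that exceeds those at E13 and E14 was therefore not shown.

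**Figure D4:**
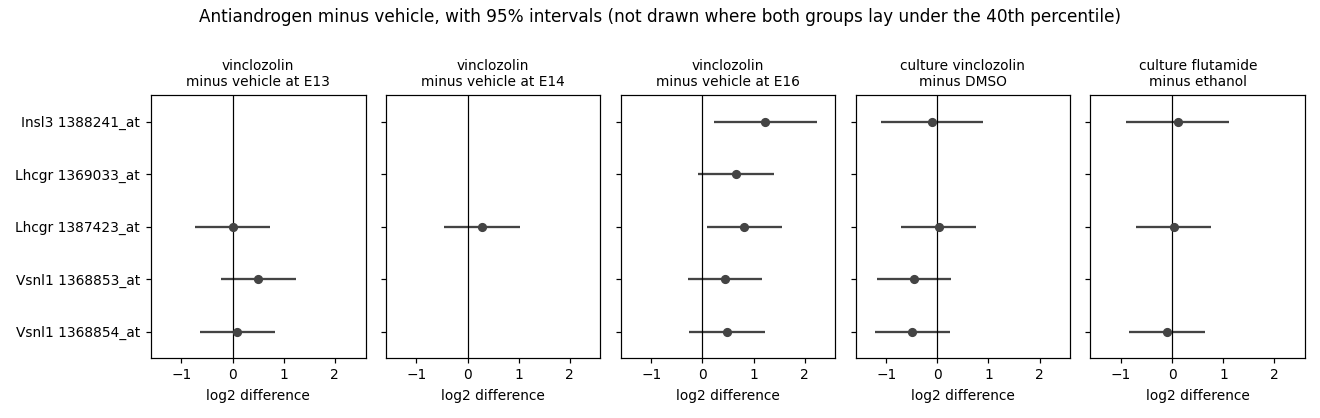
Antiandrogen minus vehicle in log2(signal + 16) (horizontal) for the 5 probe sets (vertical), with 95% intervals from limma, in 5 comparisons. Only the intervals of Insl3 (0.23 to 2.23) and of Lhcgr 1387423_at (0.08 to 1.56) at E16 leave out 0, before any adjustment, and comparisons of 2 dim groups are not drawn.

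In culture, Insl3 was well above the floor in every group. It read 251.6 and 213.4 with DMSO, 263.5 and 173.8 with vinclozolin, 125.1 and 132.3 with ethanol and 118.6 and 163.7 with flutamide. The scales of the 2 culture experiments differ, so ranks within the array are the fairer measure. Insl3 ranked at percentiles 68.2 to 74.8 on the arrays of the vinclozolin experiment and at 72.4 to 78.8 on those with flutamide or ethanol. These lie above percentiles 5.49 to 31.8 of the 4 E13 arrays, the stage at which culture began, and below 87.2 to 98.1 of E16, with no overlap. No test was made across experiments, and how many of all probe sets separate likewise was not counted.

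Lhcgr in culture, at its brighter probe set, read 55.9 and 93.2 with DMSO, 83.2 and 66.2 with vinclozolin, 62.5 and 83.1 with ethanol and 72.6 and 75.0 with flutamide. It ranked from 46.3 to 55.8 and from 59.5 to 65.6, above the 27.9 to 40.6 of E13 and below the 66.6 to 85.8 of E16. Its other probe set lay under the 40th percentile on all 8 culture arrays, with ranks of 11.7 to 21.5 and 6.38 to 36.9 that overlapped the 14.3 to 20.6 of E13. Vsnl1, at its brighter probe set, read 126.9 and 176.1 with DMSO, 113.7 and 91.1 with vinclozolin, 125.5 and 97.2 with ethanol and 97.2 and 106.4 with flutamide. Its ranks of 56.3 to 67.6 and 68.1 to 73.8 lay above those of E13 (32.8 to 53.8), and in the flutamide experiment they overlapped those of E16 (72.7 to 79.9). Its second probe set ranked from 38.9 to 48.5 in the vinclozolin experiment and from 26.5 to 39.1 in the flutamide experiment. Both overlapped the 16.9 to 45.3 of E13, where 45.3 was that of vinclozolin replicate 1. The ranks of the vinclozolin experiment also overlapped the 44.2 to 54.9 of E16. So at the brighter probe sets all 3 genes ranked higher after culture than at E13, and Insl3 and Lhcgr ranked lower than at E16. The dimmer probe sets of Lhcgr and Vsnl1 overlapped E13. That of Vsnl1 also overlapped E16 in the vinclozolin experiment, and that of Lhcgr overlapped E16 (25.5 to 47.0) in the flutamide experiment. How many of all probe sets separated likewise was not counted, and the experiments differ in scale and in beta-actin ratios. These ranks therefore do not set the genes apart.

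Leydig genes ranked differently among themselves in culture. Cyp17a1 read 666.5 to 955 in the vinclozolin experiment (percentiles 89.3 to 93.0) against 2657 to 7448 at E16 (98.0 to 99.5). In the flutamide experiment Cyp17a1 ranked from 94.9 to 96.5. Cyp11a1 ranked from 86.0 to 88.3 in the vinclozolin experiment and from 96.3 to 97.1 in the flutamide experiment. At E16 Cyp11a1 ranked from 96.6 to 98.2, which overlapped the flutamide experiment only. Star ranked from 84.9 to 93.2 in culture and from 83.2 to 92.9 at E16, so its ranks overlapped where those of Insl3 did not. With every array set to a trimmed mean of 100, the summed signal of 12 neural genes was 511 to 752 in the vinclozolin experiment, 1092 to 1308 in the flutamide experiment, 618 to 752 at E13 and 243 to 384 at E16. That of 4 adrenal genes was 62.5 to 97.4, 209.7 to 314.5, 38.3 to 64.9 and 38.4 to 56.3 in the same order. Both sums were thus highest in the flutamide experiment, where the brighter Vsnl1 probe set overlapped E16. The second Vsnl1 probe set ranked from 26.5 to 39.1 there, against 38.9 to 48.5 in the vinclozolin experiment. The neural sum was also higher at E13 than at E16, whereas Vsnl1 was lower at E13. Of the adrenal markers, Cyp21a1, the steroid 21-hydroxylase, ranked from 66.7 to 76.3 in the flutamide experiment, from 8.19 to 52.0 in the vinclozolin experiment and from 4.56 to 37.9 at E16. Cyp11b1, the steroid 11-beta-hydroxylase, ranked from 52.0 to 61.5, from 41.55 to 52.4 and from 22.8 to 37.6. Akr1b7, an aldo-keto reductase, ranked from 56.1 to 63.7, from 41.4 to 48.8 and from 38.8 to 54.5. Pnmt, the enzyme that makes adrenaline, ranked from 30.3 to 49.4, from 7.95 to 33.1 and from 3.79 to 23.9, with overlap between the culture experiments. The part of such cells in the culture level of Vsnl1 was not tested.

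In culture, none of the 5 probe sets was called for either compound. With vinclozolin at 50 µM, Insl3 differed by -0.11 (95% interval -1.11 to 0.90), the brighter Lhcgr probe set by 0.03 (95% interval -0.71 to 0.77) and Vsnl1 by -0.49 (95% interval -1.23 to 0.25) and -0.46 (95% interval -1.18 to 0.27), each with an adjusted p of 1 in limma. Both Vsnl1 probe sets were lower on both vinclozolin arrays than on both DMSO arrays, as were 13.3% of all probe sets. The summed signal of 12 neural genes was 1114 and 1198 with DMSO and 1639 and 1461 with vinclozolin, and 0 of the 12 were called. Any part of neural cells in the Vsnl1 difference was not tested. With flutamide at 0.5 µM, Insl3 differed by 0.10 (95% interval -0.90 to 1.11), Lhcgr by 0.03 (95% interval -0.71 to 0.76) and Vsnl1 by -0.10 (95% interval -0.84 to 0.63), each with an adjusted p of 1. The second Vsnl1 probe set was dim in both flutamide groups, and the dim Lhcgr probe set read 2.4 and 22.6 with ethanol and 27.5 and 17.3 with flutamide. Of all probe sets 0 were called with vinclozolin (610 at an unadjusted p under 0.05) and 0 with flutamide (494), and of the 5 none was under 0.05 unadjusted. The doses and vehicles differ, so the compounds were not compared with each other.

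Genes of the same pathways were taken from lists. Of the other relaxin family genes, 1 was tested, Rln1, which encodes relaxin and rose from E14 to E16 with vehicle (0.90, SE 0.28, adjusted p = 0.0313). It read 45.2 and 36 at E14 and 98.7 and 80.6 at E16, with replicate 1 the higher at E16, unlike Insl3. That call was lost without any 1 of the 4 arrays (adjusted p 0.0642 to 0.151). The receptors Rxfp1 and Rxfp2 were not listed in the annotation. Among 3 tested genes of the gonadotropin axis, Cga, the alpha subunit that gonadotropins share, fell from E13 to E16 by 2.56 (SE 0.29, adjusted p = 3.41e-05, and by 1.90 counted from the 40th percentile), from 250.7 and 120.6 to 13.8 and 19.4. The other 2 genes were not called, which makes 33.3% of the 3 against 8.55% of all probe sets. Cga was higher on the E13 arrays numbered 1 (250.7 and 212.8) than on those numbered 2 (120.6 and 148.5). Without both arrays numbered 1 the Cga difference was -2.07.

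Of 26 tested genes of cAMP signalling, the path that Lhcgr and Fshr feed, 2 rose and 3 fell from E14 to E16 with vehicle (median -0.18), together 19.2% against 22% of all probe sets. From E13 to E16, 2 rose and 0 fell (median 0.05), 7.69% against 8.55%. Both shares are near those of all probe sets, so the single genes that follow do not set the list apart. Prkar2b, a regulatory subunit of protein kinase A, rose by 1.56 (SE 0.22, adjusted p = 0.000279), and Crem, a cAMP-responsive transcription factor, by 0.73 (SE 0.15, adjusted p = 0.0033). Prkaca, the catalytic subunit, fell by 0.85 (SE 0.24, adjusted p = 0.0206) and was not called without any 1 of the 4 arrays (adjusted p 0.0542 to 0.102). The adenylyl cyclase gene Adcy6 fell by 0.63 (SE 0.17, adjusted p = 0.0161), a call lost without E14 vehicle replicate 1 or E16 vehicle replicate 1 (adjusted p 0.138 and 0.115). From E13 to E16 the genes called were Adcy2, up by 0.80 (SE 0.19, adjusted p = 0.0141) and Prkar2b by 0.91 (SE 0.22, adjusted p = 0.0145), both not called without E13 vehicle replicate 1 (adjusted p 0.0942 and 0.119). Adcy2 was also lost without E16 vehicle replicate 1 (adjusted p 0.0975) and Prkar2b without E16 vehicle replicate 2 (adjusted p 0.0911).

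The 8 tested relatives of Vsnl1 were calcium sensors of the visinin and potassium channel-interacting families. From E14 to E16 with vehicle, 0 rose and 1 fell (median -0.04), 12.5% called against 22% of all probe sets. From E13 to E16 none was called, 0% against 8.55%. The one was Hpcal1, hippocalcin-like, which read 745.2 and 1765.9 at E14 and 506.1 and 538.1 at E16 (-1.11, SE 0.30, adjusted p = 0.016). Its call was lost without any array but E14 vehicle replicate 1 (adjusted p 0.058 to 0.232), and the difference was -0.50 without E14 vehicle replicate 2. None of these relatives was called upwards in the vehicle comparisons between stages, while 1 was in each stage comparison averaged over treatments. Shares of 8 genes are coarse.

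Among Leydig genes, 7 of 16 rose and 1 fell from E14 to E16 (median -0.06; 50% called against 22% of all probe sets), and 9 rose and 1 fell from E13 to E16 (median 1.20; 62.5% against 8.55%). Cyp17a1 rose from E14 to E16 by 7.22 (SE 0.39, adjusted p = 1.72e-08, and by 6.23 counted from the 40th percentile), Cyp11a1 by 4.95 (SE 0.20, adjusted p = 3.26e-10) and Star by 2.79 (SE 0.22, adjusted p = 1.54e-06). Of 13 Sertoli genes 2 rose and 2 fell from E14 to E16 (median -0.13; 30.8% called, against the same 22%). Of 12 neural genes 0 rose and 4 fell (median -0.46; 33.3%), of 6 mesonephros genes 0 rose and 4 fell (median -1.29; 66.7%), and of 4 adrenal genes 0 were called (median -0.41). Red cell genes rose in 2 of 4 from E14 to E16 (median 1.36; 50%) and in 4 of 4 from E13 (median 2.88, against 8.55% of all probe sets). From E13 to E16, 4 Sertoli genes rose and 1 fell (median 0.53; 38.5% called, against the same 8.55%). Over that interval 0 neural genes rose and 2 fell (16.7%), 0 mesonephros genes rose and 1 fell (16.7%), and 0 adrenal genes were called. Lists of 4 to 16 genes give coarse shares, and no test of a list was made. In the vinclozolin and flutamide comparisons 0 genes of these lists were called.

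The genes whose in utero pattern was most like that of each gene were found by Pearson correlation of log2(signal + 16) over the 12 in utero arrays, among 11674 genes with 1 symbol. For Insl3 these were Cyp11a1, Cyp17a1, Tifa, Slc25a31, a mitochondrial ADP/ATP carrier, and Myh6, a myosin heavy chain (each r = 0.98). For Lhcgr they were Cyp17a1, Myh6, Star, the carboxypeptidase gene Cpa1 and Slc25a31 (each r = 0.98). For Vsnl1 they were Tpm1, a tropomyosin (r = 0.96), and Rala, a small GTPase, Fuca2, a fucosidase, Bcas2 and Nmd3, an export factor of the large ribosomal subunit (each r = 0.95). Insl3 and the brighter Lhcgr probe set correlated at r = 0.99 (Spearman's rho 0.84) and Insl3 and the brighter Vsnl1 probe set at r = 0.90 (rho 0.66). These are descriptions over 12 arrays that share 3 stages, and they follow mostly from the step between E14 and E16. The list of Insl3 and that of Lhcgr share Cyp17a1, Slc25a31 and Myh6, and neither shares a gene with that of Vsnl1.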

How the data were processed

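Testis RNA was measured on 20 Affymetrix arrays. The deposited values are signal intensity, made by the authors with MAS5 (and GCOS for the cultures), per the submitters' processing notes; their versions are not stated in the sources used here. Arrays of an experiment shared 1 trimmed mean, and no further scaling was applied. After 57 control probe sets were left out, probe sets at or above the 40th percentile of the array on at least 2 arrays were kept (22526 of 31042) and taken to log2 with a pseudocount of 16. Symbols came from the platform annotation and locations from RefSeq (GRCr8).

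One limma fit (3.58.1, R 4.3.3) held all 20 arrays, with 1 mean per group, a variance trend, residual degrees of freedom 10 and prior degrees of freedom 6.76. Tests were two-sided, with Benjamini-Hochberg adjustment over all tested probe sets, and the script was tested on simulated data. The members and lists were chosen with earlier results of these data known. List genes were represented by their probe set of highest mean, and at most 4 that passed, of smallest p, were named per list and comparison. Cell type lists were added for testis and neighbouring cells. Alternatives were other scalings, pseudocounts, filters, sets of arrays, a replicate block, no trend and leaving out each array.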

Additional observations from a re-analysis of the deposited data

How the results depend on the processing

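Alternatives were quantile normalization, 1 trimmed mean for all arrays, pseudocounts of 1 and 64, no filter or one at the median, fits with the arrays of the experiment or of the comparison, no trend, a replicate block and leaving out each array; a block within each set, leaving out both E13 arrays numbered 1, a crossed block at E16 and raising dim readings to the 40th percentile were chosen after seeing the data. Of the values of the 5 probe sets under these settings, 809 kept direction and call, 8 lost a call, 6 gained one and 27 changed sign. The count of called probe sets moved by over 1.5 times in 1 comparison, E13 to E14 averaged over treatments, from 1 to 0 with the arrays of the comparison (adjusted p = 0.0933), without both E13 arrays numbered 1 and with raised readings; without 1 array it ran from 0 to 1.

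All 6 gained calls were those of Vsnl1 1368853_at from E13 to E16 with vehicle (adjusted p 0.0149 to 0.0487, 0.0509 as reported). No value that changed sign had been called. With quantile normalization Lhcgr 1387423_at stood at -0.033 for flutamide, and with a pseudocount of 1 at 0.013 for vinclozolin at E13. Without both E13 arrays numbered 1, Vsnl1 1368853_at stood at 0.079 from E13 to E14 (averaged) and Vsnl1 1368854_at at -0.22 for vinclozolin at E13. With raised readings Lhcgr 1387423_at stood at 0.14 from E13 to E14 (vehicle), 0.040 for vinclozolin at E13 and -0.022 at E14, Lhcgr 1369033_at at -0.045 from E14 to E16 (vehicle) and Vsnl1 1368853_at at 0.021 from E13 to E14 (averaged). Without 1 array, Lhcgr 1387423_at ran from -0.30 to 0.20 (E13 to E14, vehicle), -0.049 to 0.24 (averaged), -0.25 to 0.25 (vinclozolin at E13), -0.0040 to 0.58 (at E14), -0.27 to 0.33 (vinclozolin in culture) and -0.14 to 0.19 (flutamide). Insl3 ran from -0.38 to 0.17 (vinclozolin in culture) and -0.10 to 0.31 (flutamide). Vsnl1 1368854_at ran from -0.59 to 0.77 (vinclozolin at E13), -0.081 to 0.37 (mean of 3 stages) and -0.27 to 0.056 (flutamide), and Vsnl1 1368853_at from -0.052 to 1.06 (vinclozolin at E13). The cause of these changes was not tested.

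Same-numbered arrays deviated together at E13 (r = 0.60) and not clearly elsewhere (-0.11 to 0.12). The labels do not say that a number marks a shared animal or day, so the numbers were not taken to pair the arrays. With the replicate block all counts of called probe sets kept their values (4 from E14 to E16 and 3 from E13 to E16 with vehicle, 0 for each treatment comparison), and with the block within each set 4 were called from E13 to E16 with vehicle. A crossed pairing at E16 called 0 of the 5 for vinclozolin. Precision is limited by 2 arrays per group, and the Insl3 rises are bounded below by how dim the earlier readings are.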
